A study of Mus musculus with 6 samples.

Results

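Genes of glucose uptake and breakdown, 10 of the 18193 genes with a probe set of their own on the array, were compared between cells of the mouse olfactory epithelium sorted with and without surface ICAM1. They are the glucose transporter gene Slc2a1 and the enzyme genes Hk1, Hk2, Pfkl, Pfkp, Aldoa, Pgk1, Pkm, Ldha and Ldhb, chosen by gene symbol and read by 26 probe sets, all of which passed the filter on low intensity. A further probe set, which the platform table lists under Hk1 together with several ribosomal protein L17 genes, was left out.

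The cells came from CD1 mice of 3 litters, aged 21, 22 and 24 postnatal days, and no group was treated. A fluorescent antibody against ICAM1 split each dissociated epithelium into a positive and a negative sort, so there were 3 arrays per sort, paired by litter. Age and litter cannot be told apart, each array holds the pooled cells of a litter whose size is not given in the sources used here, and a sort is a mixture of cell types. Icam1 itself stood at 13, 16.1 and 33.2 on the negative and at 7246.5, 6817.2 and 6857.1 on the positive arrays, in keeping with the titles; the short descriptions attached to the samples name the opposite sort.

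Glycolysis splits glucose into pyruvate in the cytosol and yields ATP without oxygen. Most of its steps are run by isoenzymes, proteins from different genes that catalyse the same reaction with different affinity and regulation, and tissues differ in which they make. Pyruvate either enters mitochondria or is reduced to lactate, and the lactate dehydrogenase made of A subunits is commonly associated with lactate formation, the one made of B subunits with lactate use. Horizontal basal cells are the ICAM1-carrying quiescent stem cells of this epithelium, while the neurons that make up much of the rest have high energy needs for their cilia and action potentials.

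Array medians lay between 87.7 and 102.4, and log2 intensities correlated at 0.934 to 0.944 within a sort and at 0.762 to 0.794 between sorts. Markers of several cell types differed between the sorts. All 6 horizontal basal cell markers were higher in the positive sort (summed intensity 225.6 to 693.4 on the negative and 84040 to 87500 on the positive arrays), as were all 7 macrophage markers (883.4 to 1080 and 15830 to 20570). All 7 mature neuron markers (75110 to 88090 and 4621 to 9855) and all 6 immature neuron markers (40560 to 50680 and 1993 to 4121) were lower. Of the other lists, globose basal cells had 4 of 5 lower (13500 to 13970 and 2271 to 2390), ciliated cells 5 of 5 lower (7799 to 9506 and 562.1 to 932.6), microvillar cells 2 of 6 lower (1704 to 4743 and 506.9 to 1032), neutrophils 5 of 6 lower (3614 to 10400 and 1634 to 3286), erythroid cells 3 of 3 lower (649.3 to 2293 and 155 to 243.2) and lymphocytes 1 of 3 lower (115.5 to 290 and 56.2 to 117.1). Bowman glands had 4 of 5 higher and 1 lower (12000 to 19040 and 34950 to 39470), and 1 gene each was higher among 5 of sustentacular cells (18280 to 32250 and 12540 to 29660), 5 of endothelium (233.3 to 244.2 and 324.1 to 416.5), 6 of fibroblasts (1427 to 3497 and 2916 to 5038) and 4 of ensheathing glia (259.4 to 390.3 and 441.8 to 898.3). Without the litter block the counts differed for microvillar cells (5 lower) and neutrophils (2 lower), and the lower gene of Bowman glands lost its call. No tested marker was at 0, the lowest single value being 2.3. The results below compare the same sorts, between which many of these markers differed, and the part of the cell types in the results was not tested. In sorted mixtures, fewer cells of a type and less RNA per cell cannot be told apart.

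Of the 10 genes, 5 (Slc2a1, Hk2, Pfkl, Pgk1 and Ldha) were higher in the ICAM1-positive sort, 3 (Pfkp, Pkm and Ldhb) were lower, and Hk1 and Aldoa did not pass the threshold (adjusted p under 0.05 with litter as a block). Of the 26 probe sets, 12 were higher and 6 lower, against 17.8% and 19.3% of all 38694 tested (37.2% in all). Over all 16399 genes tested, 21.3% were higher and 22.2% lower, 43.6% in all. The groups did not overlap for 9 of the 10 genes, against 57.9% of all genes. The median log2 difference (positive minus negative) of the 10 genes was 0.79 and that of all genes tested -0.06; the medians of the absolute differences were 1.24 and 0.73. Leaving out a litter kept every direction but left few calls, 1 higher without litter 1, 2 without litter 2, 3 without litter 3, and 0 lower in each case. At an unadjusted p under 0.05 the counts were 5 higher and 3 lower whichever litter was left out. The share of all genes at an unadjusted p was not computed, so these counts, and those of the lists below, have nothing to be set against.

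**Figure D1:**
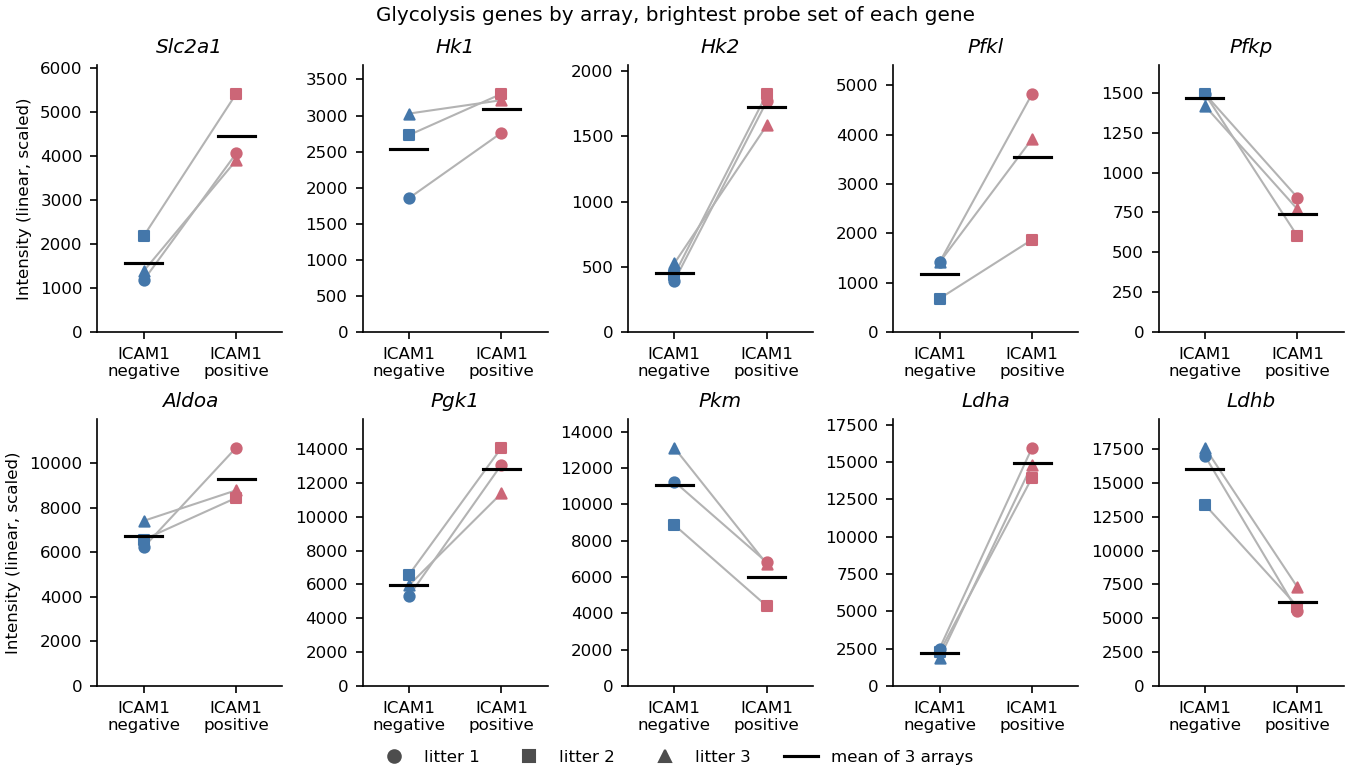
Linear scaled intensity of each gene's brightest probe set on the 6 arrays, 1 panel per gene with its own axis from 0. Lines join the sorts of a litter and black bars are means of 3 arrays. All 3 litters run upward for Slc2a1, Hk2, Pfkl, Pgk1 and Ldha and downward for Pfkp, Pkm and Ldhb.

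Glucose enters cells through facilitative transporters, of which the Slc2a1 product, GLUT1, is the widespread basal form. On its brightest probe set Slc2a1 stood at 1173.9, 2173.8 and 1382.3 on the negative arrays of litters 1, 2 and 3, and at 4052.9, 5404.8 and 3896.3 on the positive arrays. The lowest positive array lay above the highest negative one, and litter 2 was highest in both sorts. The log2 difference was 1.53 ± 0.16 (SE, 3 litters; adjusted p = 0.00945), 2.89-fold. Both other probe sets gave nearly the same difference, 1.47 ± 0.17 and 1.48 ± 0.14. The call was kept without litter 2 (adjusted p = 0.0493) and lost without litter 1 (0.0594) or litter 3 (0.0583), with the difference between 1.40 and 1.64.

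Hexokinases trap glucose in the cell as glucose 6-phosphate. Hk1 is the form most tissues and the brain rely on, and Hk2 the regulated form of muscle, fat and many growing cells. Hk2 stood at 390.5, 437.5 and 525.5 in the negative sort and at 1768.2, 1825.1 and 1584.2 in the positive sort. Every positive array was thus above every negative one, a log2 difference of 1.94 ± 0.18 (adjusted p = 0.00788), or 3.85-fold; the call was lost without litter 1 (0.0547) or litter 2 (0.0551). Hk1 was measured at 1855.1, 2729.1 and 3027.3 in the negative and at 2761.5, 3300.9 and 3213.2 in the positive sort, with overlapping groups. Its log2 difference was 0.31 (95% interval -0.17 to 0.79, adjusted p = 0.223), so a rise as large as 0.79 is within its error. The other Hk1 probe set gave 0.32 (-0.22 to 0.85). With an intensity trend in the variance model Hk1 passed (adjusted p = 0.0419).

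Phosphofructokinase commits sugar to glycolysis, and its liver (Pfkl) and platelet (Pfkp) subunits moved in opposite directions on their brightest probe sets. Pfkl stood at 1414.5, 679.2 and 1413.5 in the negative and at 4826, 1873.5 and 3915.2 in the positive sort. Litter 2 was the lowest in both sorts, and the groups did not overlap. The log2 difference was 1.57 ± 0.14 (adjusted p = 0.00759), with calls lost without litter 1 (0.0548) or litter 2 (0.0503). A second Pfkl probe set rose by 1.33 ± 0.14, but its groups overlapped, and it did not pass without the litter block (adjusted p = 0.107). The remaining one was under the array median on all negative arrays (51, 62.6 and 77.9) and at 295.1, 145.5 and 187.8 on the positive arrays. Its rise is at least 2.08-fold, counted from that median (adjusted p = 0.0372 on the values as deposited).

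Pfkp fell on its brightest probe set, from 1493.4, 1493.9 and 1418.5 to 843.8, 601.6 and 770.2. The negative arrays were close together and all lay above the positive ones, with a log2 difference of -1.01 ± 0.17 (adjusted p = 0.0237). This call was lost without litter 1 (0.0946), 2 (0.0853) or 3 (0.0921). The other probe sets of Pfkp were dim, between 22.1 and 153.5, and gave -0.07 ± 0.48 and 0.51 ± 0.14 without passing (adjusted p = 0.919 and 0.0624). Averaged over its 3 probe sets, Pfkp did not pass (-0.19, adjusted p = 0.393), so its fall rests on the bright probe set.

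Aldolase A cleaves the phosphorylated sugar into trioses in the middle of the pathway. Aldoa stood at 6226.4, 6568 and 7412 in the negative and at 10700.3, 8447.5 and 8787.6 in the positive sort. The groups did not overlap, but the log2 difference of 0.46 (95% interval -0.05 to 0.97) did not pass (adjusted p = 0.125). Of its 5 probe sets, 4 gave differences from 0.46 to 0.62. One of these, at 0.62 ± 0.14, passed (adjusted p = 0.0469; 0.0649 without the litter block). The remaining probe set, with positive arrays below all negative ones, gave -0.34 (95% interval -0.81 to 0.13, adjusted p = 0.19). The brightest probe set passed when values under the array median were set to it (adjusted p = 0.00483) and with an intensity trend (0.00667). In both settings its log2 difference stayed at 0.46, and only the estimated error and the adjustment changed.

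Pgk1 encodes phosphoglycerate kinase, which makes the first ATP of the pathway. It stood at 5313.6, 6565 and 5944.8 in the negative and at 13073.4, 14076.2 and 11382.9 in the positive sort, with a wide gap between the groups. The log2 difference was 1.11 ± 0.15 (adjusted p = 0.0143), 2.16-fold, and the call was lost without litter 1 (0.0854), 2 (0.0765) or 3 (0.0606). Its other probe sets rose by 1.22 ± 0.13 and 1.85 ± 0.31. The larger of these came from a positive sort that spread from 2597.3 in litter 2 to 6858.7 in litter 1.

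Pyruvate kinase, encoded by Pkm, makes the last ATP together with pyruvate. Pkm fell from 11260.9, 8871.5 and 13125.6 to 6811.9, 4398.4 and 6713.9, against the direction of Pgk1. Litter 2 was lowest in both sorts and the groups did not overlap. The log2 difference was -0.90 ± 0.14 (adjusted p = 0.02), 1.87-fold lower, and the call was lost without litter 1 (0.0854), 2 (0.0954) or 3 (0.096). One probe set reads this gene, and it was not used to separate the M1 and M2 splice forms.

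Lactate dehydrogenase showed the sharpest contrast between isoenzymes among the 3 pairs measured. Ldha stood at 2508.2, 2268 and 1866.5 in the negative sort and at 15973.6, 13972.5 and 14841.1 in the positive sort. All 3 positive arrays were far above the negative ones, at means of 14930 ± 1000 and 2214 ± 324 (SD, n = 3). The log2 difference was 2.76 ± 0.15 (adjusted p = 0.00417), 6.78-fold, and it was the member that kept its call without each litter (adjusted p 0.0362 to 0.04).

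Ldhb moved the other way. It stood at 16992.9, 13386.6 and 17598.9 in the negative and at 5531.7, 5863.2 and 7293.5 in the positive sort, again without overlap. The log2 difference was -1.36 ± 0.16 (adjusted p = 0.0113), 2.57-fold lower. All 4 Ldhb probe sets fell, by between 1.33 and 1.43 on the log2 scale. On the brightest the call was lost without litter 1 (0.0661), 2 (0.0578) or 3 (0.0622).

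**Figure D2:**
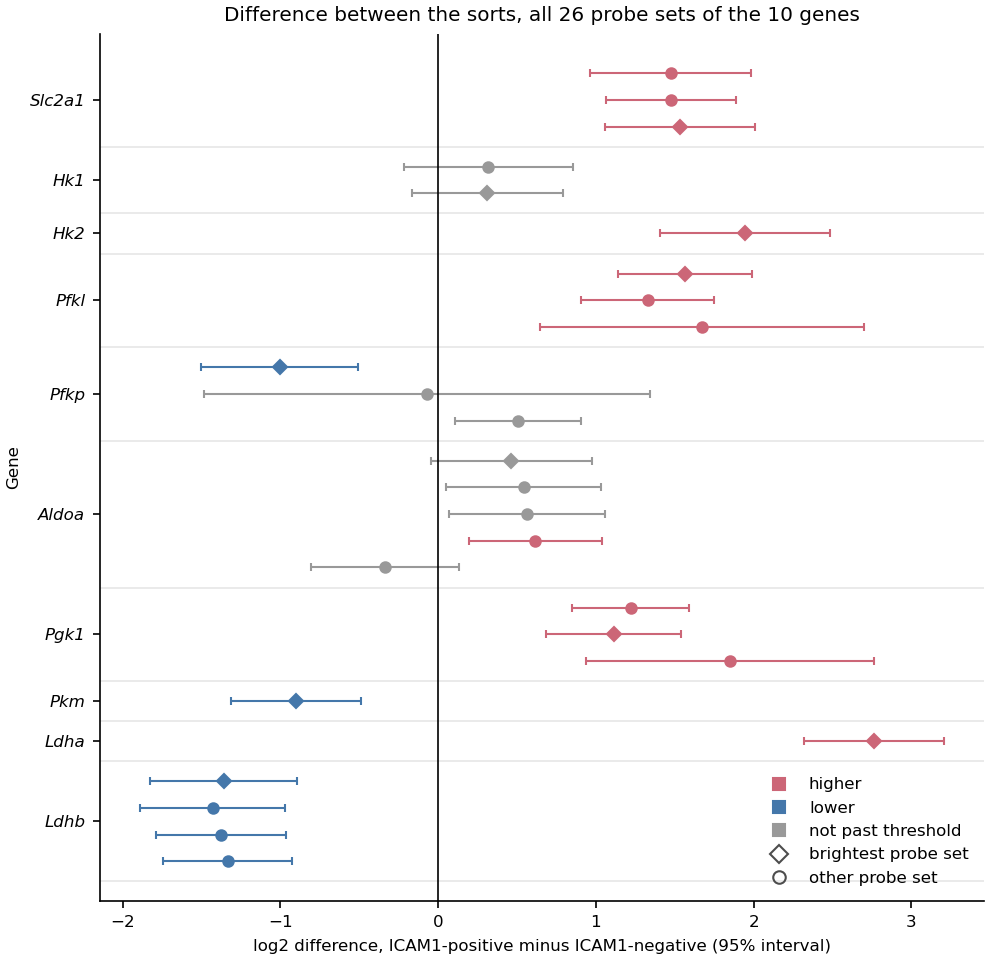
Log2 difference, ICAM1-positive minus ICAM1-negative, for each of the 26 probe sets grouped by gene, with 95% intervals from the fit. Diamonds mark the brightest probe set of a gene and colours the call. Probe sets of Slc2a1, Pfkl, Pgk1 and Ldhb lie on 1 side of 0, while those of Pfkp and Aldoa lie on both.

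Levels of different probe sets cannot be set against each other, but the change of their ratio between the sorts can. The log2 ratio of Ldha over Ldhb was -2.76, -2.56 and -3.24 on the negative arrays and 1.53, 1.25 and 1.02 on the positive arrays. It differed by 4.29, 3.81 and 4.26 within litters 1, 2 and 3, a mean shift of 4.12 or 17.4-fold. For Pfkl over Pfkp the shift was 2.57, with 2.59, 2.78 and 2.35 within litters, and it was 1.71 with probe sets averaged. For Hk1 over Hk2 the shift was -1.63, with -1.60, -1.79 and -1.51 within litters. None of the 3 ratios overlapped between the sorts. An exact two-sided permutation test over the arrays, which did not use the pairing by litter, gave p = 0.1 for each, also after adjustment over the 3 ratios. This is the smallest that 3 arrays against 3 allow and does not reach the threshold.

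**Figure D3:**
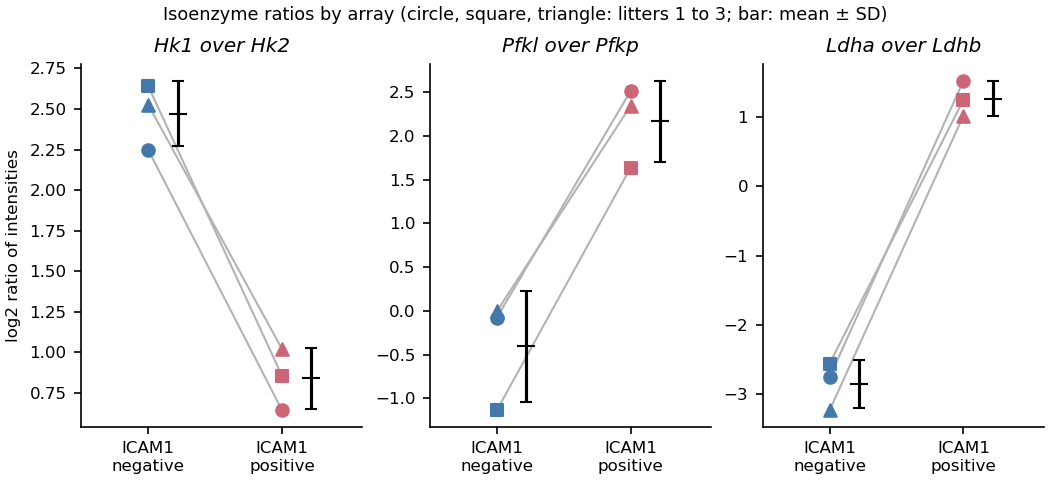
Log2 ratio of the intensities of 2 isoenzyme genes on each array, joined by litter, with the mean ± SD of 3 arrays beside the points; each panel has its own axis. The ratio of Hk1 to Hk2 falls in each litter, and those of Pfkl to Pfkp and Ldha to Ldhb rise in each litter.

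Several glycolysis genes are textbook targets of hypoxia-inducible factor (HIF), whose binding element has a core of A or G followed by CGTG. Only the form ACGTG was searched, and it is called the core below. The 250 bases before the start of the genes are shown for Ldha and Ldhb, which moved in opposite directions, and for Hk2 and Pgk1, which rose. They are RefSeq sequence of build GRCm38.p6, written 5′ to 3′ along the gene, with each ACGTG or its reverse complement CACGT in capitals. They lie at chr7:46845554-46845803 (plus strand, the first of 2 listed starts) for Ldha, chr6:142507958-142508207 (minus) for Ldhb, chr6:82774455-82774704 (minus) for Hk2 and chrX:106186850-106187099 (plus) for Pgk1.
Ldha: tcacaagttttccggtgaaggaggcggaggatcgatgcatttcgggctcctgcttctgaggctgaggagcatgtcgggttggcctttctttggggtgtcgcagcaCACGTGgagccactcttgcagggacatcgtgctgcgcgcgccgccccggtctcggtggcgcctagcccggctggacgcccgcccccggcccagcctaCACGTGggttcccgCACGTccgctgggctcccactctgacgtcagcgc
Ldhb: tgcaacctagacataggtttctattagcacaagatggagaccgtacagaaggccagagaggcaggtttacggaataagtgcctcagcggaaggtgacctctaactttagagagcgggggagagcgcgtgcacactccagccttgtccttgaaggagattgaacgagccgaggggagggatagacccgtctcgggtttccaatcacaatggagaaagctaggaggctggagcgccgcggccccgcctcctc
Hk2: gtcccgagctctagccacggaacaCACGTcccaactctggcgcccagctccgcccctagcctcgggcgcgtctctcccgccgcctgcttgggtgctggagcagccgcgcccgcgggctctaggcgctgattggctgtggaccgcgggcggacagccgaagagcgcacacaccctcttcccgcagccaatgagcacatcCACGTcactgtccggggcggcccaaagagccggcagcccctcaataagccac
Pgk1: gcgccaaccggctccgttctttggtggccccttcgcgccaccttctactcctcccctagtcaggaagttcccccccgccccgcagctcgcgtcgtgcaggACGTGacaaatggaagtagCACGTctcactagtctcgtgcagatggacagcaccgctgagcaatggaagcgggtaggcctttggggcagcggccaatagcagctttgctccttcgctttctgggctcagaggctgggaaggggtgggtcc

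The Ldha window holds the core at 3 places, beginning 145, 48 and 34 bases before the start. At 2 of them lies the palindrome CACGTG, which contains the core on both strands and is also the E-box of other factors. Hk2 holds it at 2 places (226 and 52 bases before the start) and Pgk1 at 2 (150 and 131), while ACGTG is not in the Ldhb window. The Ldhb window does hold GCGTG, the other form, which was not counted in any window. All 10 genes matched the promoter table, with 15 starts between them. Of their windows 7 held the core, against 16.6% of 32851 windows in the table, and 2 of the 7, both of Aldoa, overlap in the same place. Counted by gene, 6 of 10 held it before any listed start (Slc2a1, Hk2, Aldoa, Pgk1, Pkm and Ldha), against 18.5% of 27025 genes. In this count a gene with more listed starts has more chances. Pkm and Aldoa lack the core before their first listed start, and Ldha lacks it before its second. CACGTG was in 6.02% of windows. Pkm, which fell, and Aldoa, which did not pass, are among the 6, and Pfkl, which rose, is not. The windows of Pkm, Aldoa and Pfkl are not among those printed, which were picked by hand. A match describes letters in this window and not a bound site.

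The steps around these genes were read from 8 lists of linked genes. The lists were chosen with earlier results of these data known, so their shares beside those of all genes are descriptive. Of 81 genes tested, 28 were higher (34.6%, against 21.3% of all genes) and 15 lower (18.5%, against 22.2%). Without litter 1, 2 or 3 the counts were 9, 11 and 12 higher and 2, 3 and 3 lower.

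Of the other glycolysis enzymes, 11 of 19 listed were tested, 1 was higher and 5 were lower, with a median of -0.26. Without litters 1, 2 and 3 the counts were 0, 0 and 1 higher and 1, 2 and 1 lower (1, 1 and 2 higher and 4 lower each time at an unadjusted p under 0.05). Eno2, the enolase of neurons, fell from 718, 597.6 and 999.8 to 80.3, 65.3 and 90, so that all positive arrays were under their array median. The log2 difference of the deposited values passed (adjusted p = 0.00406; 0.0362 to 0.04 without a litter), and with values under the median set to it the fall is at least 7.84-fold. Pfkm, the muscle phosphofructokinase subunit, fell by 1.38 ± 0.16 on the log2 scale (adjusted p = 0.0107; 0.0728 without litter 1 and 0.062 without litter 3). Bpgm, whose product makes 2,3-bisphosphoglycerate, fell by 1.36 ± 0.13 (adjusted p = 0.00828; 0.0508 to 0.063 without a litter). Ldhc is also counted as lower (adjusted p = 0.0395, or 0.0542 to 0.161 without a litter). It stood at 52.8, 65.3 and 60.9 in the negative and at 22.1, 27.6 and 41.9 in the positive sort, under the median on every array. With values under the median set to it the lower bound is 1-fold, which shows no fall. The gene that rose was Aldoc, the aldolase of brain, by 1.36 ± 0.15 (adjusted p = 0.0102; 0.0702 without litter 1 and 0.0593 without litter 2).

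Among other glucose transporters 4 of 11 were higher and 1 was lower (median 0.46). Without litters 1, 2 and 3 the counts were 1, 2 and 3 higher and 0 lower each time (5, 4 and 4 higher and 1 lower at an unadjusted p under 0.05). Slc2a12, higher by 0.84 ± 0.14, and Slc2a13, which fell by 1.35 ± 0.16, lost their calls whichever litter was left out (adjusted p 0.08 to 0.126 and 0.0536 to 0.0695). Slc2a4, the insulin-responsive GLUT4, rose from 198, 175.3 and 183.4 to 606.5, 489.6 and 658.5 (log2 difference 1.65 ± 0.15, adjusted p = 0.00719; 0.0555 without litter 1). Slc2a9, a urate transporter, was at least 2.57-fold higher on its brightest probe set (adjusted p = 0.0055; 0.04 to 0.0456 without a litter), but with its probe sets averaged the log2 difference was 1.10, below that bound. Slc2a10 was likewise at least 2.57-fold higher on its brightest probe set, from a negative sort below the array median (adjusted p = 0.0116, or 0.0672 without litter 1 and 0.0678 without litter 2). With its probe sets averaged the log2 difference was 2.88 (adjusted p = 0.0126). Slc2a3, the neuronal GLUT3, stood at 385.3 ± 113 in the negative and 365.7 ± 94.2 in the positive sort (log2 difference -0.06, adjusted p = 0.725).

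Of the carriers of lactate and pyruvate, 2 of 6 tested were higher and 1 was lower (median 0.17), and without the litter block 0 were higher (1 at an unadjusted p under 0.05). Mpc1, a subunit of the mitochondrial pyruvate carrier, fell from 3293, 2973.7 and 3509.5 to 1792.9, 1439.5 and 1698. Its groups did not overlap, with a log2 difference of -0.99 ± 0.13 (adjusted p = 0.0143; 0.0769 to 0.0794 without a litter). The lactate carrier gene Slc16a1 and Bsg, which encodes its chaperone, rose by 0.56 ± 0.12 and 0.83 ± 0.19 (adjusted p = 0.0429 and 0.0472). Both missed the threshold without the litter block (0.148 and 0.105) and with any litter left out (0.138 to 0.188 and 0.0936 to 0.161). Slc16a1 missed it also with arrays centred on their median (0.069), and both without the filter on low values (0.0672 and 0.0668).

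Regulators of glycolysis and of pyruvate entry went both ways, with 6 of 16 higher and 5 lower (median 0.19; 2 or 3 higher and 0 or 1 lower without a litter, or 6 or 7 and 4 or 5 at an unadjusted p under 0.05). Pdk4, a kinase that switches off pyruvate dehydrogenase, stood at 17, 47.6 and 44.7 in the negative and at 3244.5, 3446.3 and 2284.7 in the positive sort. The negative arrays were all below their array median, so the rise is at least 30.6-fold (adjusted p = 0.00516; 0.0362 to 0.0427 without a litter). The kinase genes Pdk1 and Pdk3 also rose, by 1.19 ± 0.13 and 1.18 ± 0.14 (adjusted p 0.0612 to 0.0674 and 0.0542 to 0.0788 without a litter). Of the phosphatases that reverse this step, Pdp1 fell by 1.40 ± 0.17 and Pdp2 rose by 0.93 ± 0.17 (0.0813 without litter 1 and 0.067 without litter 2 for Pdp1, and 0.0762 to 0.122 without a litter for Pdp2). Subunits of the complex itself, Pdhb and Pdhx, fell by 0.67 ± 0.12 and 1.18 ± 0.15 (0.112 to 0.141 and 0.0615 to 0.0775 without a litter), and Pdha1, Dlat and Dld did not pass. Pfkfb3, whose product makes the activator of phosphofructokinase, rose by 2.03 ± 0.23 (adjusted p = 0.0109; 0.0604 without litter 2 and 0.0657 without litter 3), and with its probe sets averaged the rise was 1.14, while its relatives Pfkfb2 and Pfkfb4 fell by 1.24 ± 0.14 and 0.83 ± 0.13 (0.0511 to 0.0747 and 0.0874 to 0.106 without a litter). Pfkfb4 also missed the threshold without the litter block (0.0782). Txnip, a brake on glucose uptake, rose from 3832.8, 3290.6 and 4046.3 to 12973.5, 11182 and 12167.4 (1.70 ± 0.13, adjusted p = 0.00577; 0.0408 to 0.0497 without a litter).

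Among branches that share intermediates with glycolysis, the genes that passed in glycogen metabolism and the pentose phosphate pathway were higher. Gluconeogenesis went both ways. Over all genes tested, 21.3% were higher and 22.2% lower. In glycogen metabolism 4 of 9 genes were higher and 0 lower (0 lower also at an unadjusted p under 0.05; median 0.63). Without litters 1, 2 and 3 the counts were 1, 2 and 1 higher, and without the litter block 3, with Pgm2 lost (0.0549). Pygb, a glycogen phosphorylase, rose from 925.4, 416.1 and 1304.1 to 4062.3, 2290 and 4949.6, with litter 2 lowest in both sorts (2.17 ± 0.17, adjusted p = 0.00599; 0.0381 to 0.0481 without a litter). Pgm1, which links glycogen to glycolysis, rose by 1.09 ± 0.13 and the synthase gene Gys1 by 0.97 ± 0.14. Both calls were lost whichever litter was left out (adjusted p 0.0634 to 0.0796 and 0.083 to 0.0874), and that of Gys1 with its probe sets averaged (0.0723). In the pentose phosphate pathway 3 of 7 were higher and 0 lower (2 lower at an unadjusted p under 0.05; median 0.39). These were H6pd, at least 2.54-fold, Rpia (1.01 ± 0.14) and the transketolase gene Tkt (0.68 ± 0.13), all lost whichever litter was left out (0.0518 to 0.0544, 0.0787 to 0.0821 and 0.101 to 0.156). Tkt missed the threshold also without the filter (0.0507) and with centred arrays (0.0571). In gluconeogenesis 1 of 7 was higher, the pyruvate carboxylase gene Pcx (1.59 ± 0.13, adjusted p = 0.00607; 0.0516 without litter 1). The mitochondrial Pck2 was lower, 1 of 7 (-1.55 ± 0.19, adjusted p = 0.0133; 0.0519 to 0.0723 without a litter).

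Of 14 genes of the HIF system and its targets, 7 were higher and 2 lower (median 0.72; 4 and 1 without each litter, or 6 to 8 and 2 at an unadjusted p under 0.05). The factor genes themselves were higher, Hif1a at 6972 ± 695 and 15460 ± 644 (1.15 ± 0.13) and Epas1 at 3389 ± 1250 and 24840 ± 2170 (2.93 ± 0.24; SD, n = 3, then log2 difference and SE). Epas1 kept its call without each litter (adjusted p 0.0362 to 0.0495) and Hif1a lost it (0.0615 to 0.0698). Adm, which encodes adrenomedullin, rose from 252.8, 370.5 and 368.1 to 6302.1, 6234.8 and 5859.2 (4.24 ± 0.20, adjusted p = 0.00406). The prolyl hydroxylase gene Egln3 rose by 3.77 ± 0.15 and the vascular growth factor gene Vegfa by 3.02 ± 0.16, and these 3 kept their calls without each litter (adjusted p 0.0362 to 0.04). Against them, the mitophagy gene Bnip3 fell by 0.99 ± 0.14 and Ankrd37 by 2.41 ± 0.20, both also known HIF targets; Ankrd37 kept its call without each litter (0.0401 to 0.0474) and Bnip3 lost it (0.0786 to 0.0811). Car9, Egln1, Egln2, Ndrg1 and Vhl did not pass, though Ndrg1 did without the litter block (0.0427).

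**Figure D4:**
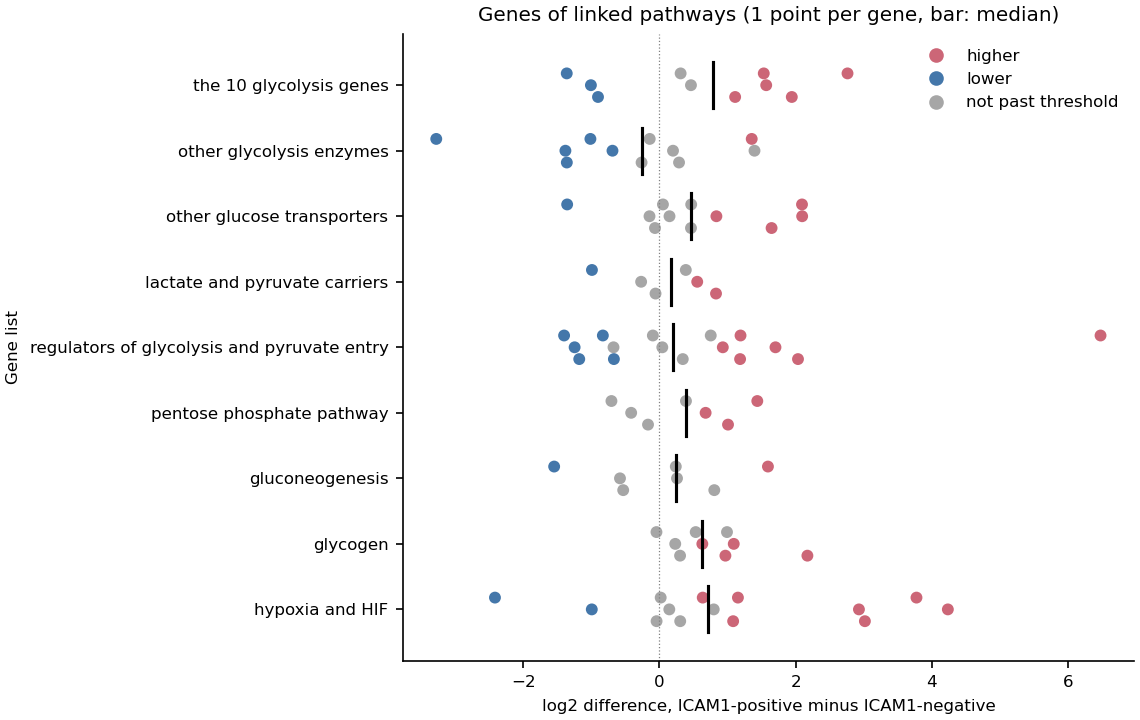
Log2 difference, ICAM1-positive minus ICAM1-negative, of each tested gene in the 8 linked lists and of the 10 glycolysis genes. Each point is 1 gene, coloured by call, and bars are medians, which run from -0.26 for the other glycolysis enzymes to 0.79 for the 10 genes. Pdk4 is plotted farthest to the right. For genes whose lower sort was under the array median, Pdk4 among them, the plotted difference is the fitted value. The text gives the lower bound only for those of them past the threshold.

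The genes whose log2 profile was most like that of Ldha over the 6 arrays were Prdm11, Myo10 and Asah2 (Pearson r = 0.9999, 0.9996 and 0.9996), and those most like Ldhb were Gdap1l1, Rmc1 and Rtn3 (r = 0.9997, 0.9996 and 0.9988). With 6 arrays in 2 sorts such values are common, since 2174 of the 16389 other genes correlated with Ldha above 0.95 and 1870 with Ldhb. Rtn3 stood at 13137, 11542.3 and 13883 in the negative and at 5828.1, 5888 and 7148.9 in the positive sort, with the litters in the same order as for Ldhb in each sort. Myo10, an unconventional myosin gene, stood at 130.1, 124.7 and 92.8 and at 1537, 1190.6 and 1340.6, with litter 3 lowest among the negative and litter 2 lowest among the positive arrays, as for Ldha. Both genes were picked by their correlation over these same arrays, so the shared order of litters is part of that selection.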

How the data were processed

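Each of 6 arrays (Affymetrix mouse genome, 45101 probe sets) measured 1 sort of 1 litter. Total RNA from each sort (TRIzol) went through 2 rounds of amplification before labelling, per the labels' protocols and the series' design text. The authors deposited linear intensities with a mean near 500 after trimming 2% from each end of every array. The submitters' processing notes name GCRMA, which would give log2 values with near-equal quantiles, so the program that made these values is not given in the sources used here. The values come without detection calls, and precision is limited by there being 3 arrays per sort.

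Intensities were transformed to log2, 64 control probe sets were left out, and 38694 probe sets above 16 (log2 above 4) on at least 3 arrays were kept. A gene was represented by its brightest kept probe set with a single symbol in the platform table. The test was limma 3.58.1 in R 4.3.3 (lmFit, eBayes) with litter as a block, adjusted by Benjamini-Hochberg over the kept probe sets. The pairing comes from the labels, where each litter gave both sorts; deviations from the sort means correlated at 0.13, 0.20 and 0.08 within litters 1, 2 and 3. Errors beside log2 differences are SE and those beside means are SD. If every array of the lower sort was under its own median for a probe set, values under the median were set to it and the resulting fold is printed as a lower bound.

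The genes and lists were chosen with earlier results of these data known. Named were all 10 genes, the 3 largest changes past the threshold in each linked list, and the 3 genes most correlated with the genes of largest rise and fall. Aldoc, Ldhc, Slc2a3, Slc2a12, Slc2a13, Pgm2, Hif1a, Epas1, Bnip3, Ankrd37, the Pdk, Pdp, Pdh, Dlat, Dld and Pfkfb relatives, and those named as not past the threshold were picked after their values were seen. Of the lists, genes without a probe set of their own or under the filter were not tested.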

Additional observations from a re-analysis of the deposited data

How the results depend on the processing

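Settings other than leaving out a litter changed few results. Without the litter block the counts were 5 higher and 3 lower of the 10 genes, as with it, and over all probe sets 6528 higher and 6984 lower against 6899 and 7476; the pairing changed no other call of a gene named here than those of Bsg, Slc16a1, Pfkfb4, Pgm2 and Ndrg1 and of single probe sets of Pfkl and Aldoa. Of the linked lists it left 26 higher and 14 lower, against 28 and 15. The directions of the 10 genes held under all 12 alternatives: no or a stricter filter, quantile or median scaling, 16 added before log2, low intensities raised to the array median, an intensity trend, probe sets averaged, no block, and each litter left out. Ldha stayed past the threshold in all 12 (2.64 to 2.83). With probe sets averaged, Pfkfb3 rose by 1.14 instead of 2.03 on the log2 scale, and the ratio of Pfkl over Pfkp shifted by 1.71 instead of 2.57. Quantile and median scaling moved the median over all probe sets by -0.01 and 4e-04. Leaving out a litter leaves the fit 2 pairs and lowered the counts of probe sets to between 2556 and 3101 higher and 2311 and 3022 lower, of the 10 genes to between 1 and 3 higher and 0 lower, and of the linked lists to between 9 and 12 higher and 2 and 3 lower. Among 23 named genes of the linked lists, 46 of 276 combinations with an alternative lost the call and 0 reversed. Low intensities, without detection calls, limit Pdk4, Eno2, Ldhc, Slc2a9, Slc2a10, H6pd and the dim probe sets of Pfkp and Pfkl.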
